A study of Mus musculus with 26 samples.

Results

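The creatine cycle genes are 7 genes whose products make creatine, carry it into cells, phosphorylate it and release the phosphate again, and they were selected by gene symbol (Gatm, Gamt, Slc6a8, Ckb, Ckmt1, Ckmt2 and Alpl) from the 48432 genes of the deposited expression table. Of the 7 genes, 6 were among the 12704 genes that reached 1 FPKM in at least 3 libraries and were tested. Ckmt1 did not. FPKM counts sequenced fragments relative to transcript length and library size, so the levels of different genes can be set beside each other.

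RNA was sequenced from brown adipose tissue (BAT, the heat-producing fat depot) of 26 mice aged 2 months. All mice carried Klf15 flox/flox alleles, which Cre recombinase can delete. FF mice had no Cre, and BKO mice had in addition Ucp1-Cre/+, in which the promoter of the brown adipocyte gene Ucp1 drives Cre, so other cells of the depot should keep Klf15. Each genotype was sampled in 4 conditions: the groups fed or fasted at room temperature held 3 mice each, the cold challenge 4 mice, and cold plus fasting 3 mice. The labels do not give the temperature, the length of cold or fasting, or whether food was present in the cold challenge. Klf15 itself, a zinc-finger transcription factor, ranged from 9.03 to 30.6 FPKM in the 13 FF libraries and from 2.12 to 8.92 FPKM in the 13 BKO libraries, with no overlap, and fell in BKO mice in each of the 4 conditions (log2 differences from -2.55 to -1.38). Brown adipocyte markers were abundant in every library, with sums over the marker genes from 9329 to 21831 FPKM. The library numbers fall into a first block, CB1 to CB8, with 8 libraries that are all of FF mice, and a second block, CB15 to CB32, with 18 libraries. All 3 FF fasted libraries are in the first block and all BKO libraries are in the second, so genotype and block cannot be told apart in fasted mice. The first block also held FF cold replicates 2 to 4 and FF fed replicates 1 and 2. Depth is unknown because the table gives no counts, and the sums of FPKM per library ran from 388107 to 501068.

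Creatine is built from arginine and glycine. The enzyme encoded by Gatm forms guanidinoacetate, and that encoded by Gamt methylates it to creatine. Many cells instead import creatine through the transporter encoded by Slc6a8. Creatine kinases move phosphate between ATP and creatine: Ckb encodes the cytosolic brain-type kinase, and Ckmt1 and Ckmt2 encode the mitochondrial kinases. In a futile creatine cycle, phosphocreatine is hydrolysed again without useful work, so that ATP is spent and heat released, and the tissue-nonspecific alkaline phosphatase encoded by Alpl has been assigned that step in brown fat. RNA levels do not measure the flux of such a cycle.

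The 4 conditions moved the genes in different ways. Ckb was low in fed mice and high in fasted mice, in the cold and in cold plus fasting. Slc6a8 was high in fasted mice at room temperature and lower than in fed mice in the cold. Alpl was high in both groups kept in the cold. Gatm and Gamt were highest in fed mice. In the fit over all genes (limma on log2(FPKM + 1), with Benjamini-Hochberg adjustment), 2 of the 6 tested members rose and 2 fell on fasting in FF mice, where 18.1% of all tested genes rose and 19.4% fell. The same numbers passed in FF mice in the cold, beside 13.3% and 10.3% of all genes, and in cold plus fasting, beside 11.6% and 8.93%. In BKO mice 2 rose and 2 fell on fasting, beside 12.9% and 14.6% of all genes. In the cold 2 rose and 1 fell, beside 9.72% and 6.51%, and the same in cold plus fasting, beside 10% and 8.93%. With so few members these counts say little by themselves, and the genes are described one by one. Differences are given on the log2(FPKM + 1) scale, which understates the change of genes at low levels, and the median over all tested genes lay between -0.0132 and 0.0117 in every comparison. In bulk tissue, fewer cells of a type and less RNA per cell cannot be told apart.

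The stretches of 250 bases before the transcription starts of Ckb and Alpl, the kinase and phosphatase that were both high in the cold, are shown because the deleted factor belongs to a family that binds CACCC and related GC-rich elements. Both genes lie on the minus strand, and the sequences are RefSeq's on GRCm38.p6, written 5' to 3', with CACCC or its reverse complement GGGTG in capitals. The Ckb stretch is chr12:111672339-111672588. The first Alpl stretch, chr4:137796385-137796634, precedes the outermost start, and the second, chr4:137766476-137766725, precedes a start inside the gene.
Ckb: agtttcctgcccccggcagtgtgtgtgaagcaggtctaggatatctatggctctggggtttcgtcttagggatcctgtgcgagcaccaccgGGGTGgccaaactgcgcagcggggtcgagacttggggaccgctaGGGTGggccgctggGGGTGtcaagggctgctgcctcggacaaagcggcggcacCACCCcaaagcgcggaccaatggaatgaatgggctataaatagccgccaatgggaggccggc
Alpl first start: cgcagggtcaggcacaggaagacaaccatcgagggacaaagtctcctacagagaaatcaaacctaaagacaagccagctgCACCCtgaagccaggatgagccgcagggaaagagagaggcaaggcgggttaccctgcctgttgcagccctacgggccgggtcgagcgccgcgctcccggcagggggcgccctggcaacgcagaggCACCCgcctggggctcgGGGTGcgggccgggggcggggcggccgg
Alpl second start: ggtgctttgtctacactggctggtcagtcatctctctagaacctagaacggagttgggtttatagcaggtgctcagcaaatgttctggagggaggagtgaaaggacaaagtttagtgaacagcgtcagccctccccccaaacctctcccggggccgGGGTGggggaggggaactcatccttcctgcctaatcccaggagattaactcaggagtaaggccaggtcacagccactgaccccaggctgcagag
The motif search read both strands for CACCC, for AAGGTCA (an element bound by orphan nuclear receptors) and for TGACG (the core of cyclic AMP response elements). CACCC stood 4 times in the Ckb stretch, 3 times in the first Alpl stretch and once in the second, and 52% of 32851 promoter stretches of the same length held it at least once. Among the other members it stood 3 times for Gamt, 2 times in each Ckmt1 stretch, 1 time for Ckmt2 and 0 times for Gatm. AAGGTCA was in none of the 3 stretches shown (4.1% of all promoters). TGACG was in the second Alpl stretch, once (17.8% of all promoters). Such matches are descriptions of letters, and binding was not measured here.

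Synthesis genes were expressed at low levels and fell on fasting. Gatm (ENSMUSG00000027199.14, chr2:122594467-122611303, minus strand of GRCm38) lay at 1.32 ± 0.256 FPKM (mean ± SD, n = 3) in fed FF mice and at 0.698 ± 0.0926 FPKM in fasted FF mice (n = 3). The fed FF libraries held 1.62, 1.19 and 1.16 FPKM and the fasted ones 0.722, 0.776 and 0.596 FPKM, so the groups did not overlap. The fall was 0.45 on the log2 scale (SE 0.11, limma adjusted p = 0.00367). No library of the fasted or cold plus fasting groups reached 1 FPKM, so Gatm entered the test only through fed and cold libraries. In BKO mice Gatm went from 1.36 ± 0.188 to 0.815 ± 0.0673 FPKM (n = 3 each), a log2 difference of -0.38 (SE 0.11, limma adjusted p = 0.0164). The BKO call did not hold without BKO fed replicate 2 (-0.31, adjusted p = 0.079), without BKO fasted replicate 1 (-0.35, adjusted p = 0.059), or without the 5 libraries richest in muscle RNA described with Ckmt2 (-0.28, adjusted p = 0.141). In the cold Gatm averaged 0.996 ± 0.252 FPKM in FF mice and 1.08 ± 0.237 FPKM in BKO mice (n = 4 each), between the fed and the fasted groups, and passed the test in neither (limma adjusted p = 0.137 and 0.25). The FF difference of -0.22 passed with array weights (-0.36, adjusted p = 0.00106) and without FF cold replicate 2 (-0.30, adjusted p = 0.048).

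In cold plus fasting Gatm averaged 0.879 ± 0.0924 FPKM in FF and 0.825 ± 0.0622 FPKM in BKO mice (n = 3 each). No library of these groups reached the lowest fed library of its genotype. The FF difference of -0.30 did not pass (limma adjusted p = 0.0635), but did with array weights (-0.44, adjusted p = 0.000885) and with median-of-ratios scaling (-0.30, adjusted p = 0.0467). In BKO mice Gatm fell by 0.37 on the log2 scale (limma adjusted p = 0.0272). That call was lost without BKO cold plus fasting replicate 1 (adjusted p = 0.0629) or 3 (0.08), without BKO fed replicate 2 (0.125), and without the muscle-rich libraries (-0.29, adjusted p = 0.205).

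Gamt (ENSMUSG00000020150.13, chr10:80258151-80261012, minus strand) stood higher than Gatm in fed mice and fell further. Fed FF mice had 3.92, 3.97 and 2.94 FPKM, and fasted FF mice had 1.17, 0.543 and 1.46 FPKM. No fasted library reached the lowest fed library, and the log2 difference was -1.18 (SE 0.19, limma adjusted p = 4.41e-05). In the cold the FF libraries held 1.23, 1.68, 1.85 and 2.22 FPKM, also all under the fed ones, with a log2 difference of -0.75 (SE 0.18, limma adjusted p = 0.00392). That difference was -0.77 within the first block (limma adjusted p = 0.033) and -0.82 within the second, where 1 library of each group remained and p is not used. In cold plus fasting the FF mean was 2.07 ± 0.178 FPKM (n = 3), and Gamt fell by 0.58 on the log2 scale (limma adjusted p = 0.0334). This last call was lost without any 1 of FF cold plus fasting replicates 1, 2 and 3 (adjusted p = 0.11, 0.0654 and 0.0576) or of FF fed replicates 1 and 2 (0.119 and 0.12), and with library block as a term (-0.34, adjusted p = 0.404).

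In BKO mice Gamt fell on fasting, and its groups overlapped in the cold. Fed BKO libraries held 3.37, 2.02 and 3.27 FPKM, and fasted BKO libraries held 1.31, 1.77 and 1.32 FPKM. Gamt fell by 0.64 on the log2 scale on fasting (SE 0.19, limma adjusted p = 0.0147), a call that ended without BKO fed replicate 1 (adjusted p = 0.0755), BKO fed replicate 3 (0.0585) or BKO fasted replicate 1 (0.0526). Cold BKO libraries ranged from 1.11 to 2.44 FPKM, and neither cold (-0.43, limma adjusted p = 0.102) nor cold plus fasting (-0.45, limma adjusted p = 0.106) passed. The cold difference passed without BKO fed replicate 2 (-0.60, adjusted p = 0.044). Of 4 fibroblast markers, 1 rose and 2 fell on fasting and 3 fell in the cold in each genotype. The collagen genes Col1a1 and Col3a1 fell each time. Of all tested genes 18.1% rose and 19.4% fell on fasting in FF mice, and 10.3% fell in the cold. In BKO mice these shares were 12.9%, 14.6% and 6.51%. Summed fibroblast markers were 111 to 149 FPKM in fed, 115 to 133 in fasted and 72.6 to 93.2 in cold FF mice, and 102 to 149.9, 106 to 120.4 and 69.7 to 81.5 FPKM in BKO mice. The part of these cells in the Gamt values was not tested.

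**Figure D1:**
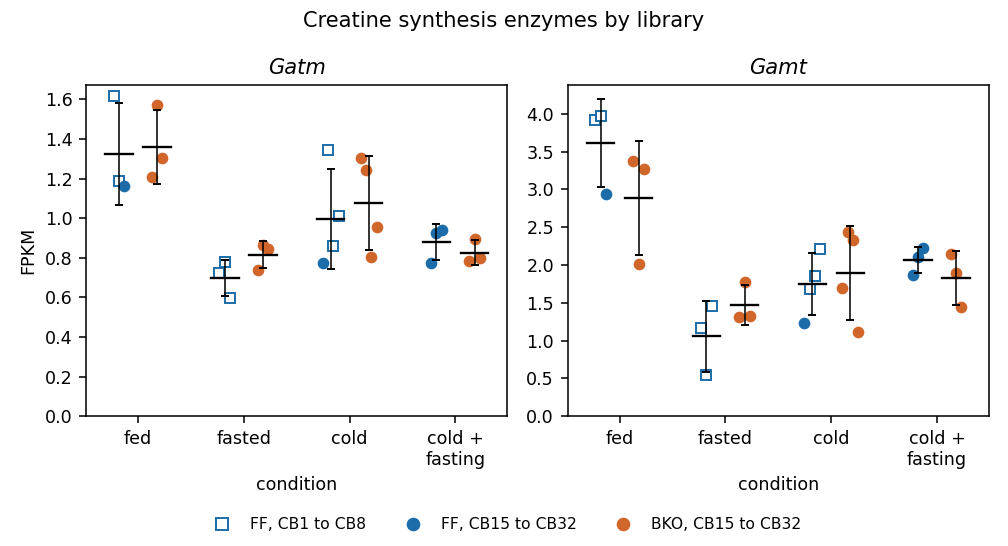
FPKM of Gatm and Gamt in each of 26 libraries by condition (horizontal axis), with squares for FF libraries CB1 to CB8 and circles for CB15 to CB32, blue for FF and orange for BKO. Bars are group means and whiskers SD. The fed groups are highest for both genes, and the fasted FF group is lowest, at 0.698 FPKM for Gatm and 1.06 FPKM for Gamt.

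Slc6a8, the plasma membrane creatine transporter (ENSMUSG00000019558.14, chrX:73673150-73682502, plus strand), rose on fasting and fell in the cold. Fed FF mice had 12.3, 12.1 and 10.5 FPKM, and fasted FF mice had 32.2, 34.1 and 42.6 FPKM. Every fasted library was above every fed one, with a log2 difference of 1.56 (SE 0.15, limma adjusted p = 4.35e-08). BKO mice went from 7.50, 11.4 and 9.34 FPKM fed to 35.3, 27.5 and 28.6 FPKM fasted, a log2 difference of 1.60 (SE 0.15, limma adjusted p = 4.53e-08). The rise passed the threshold in both genotypes under each of the 10 alternatives that could be fitted (CB15 to CB32 alone held no fasted FF library, and CB1 to CB8 alone no BKO library) and in each of the 6 fits that left out 1 library.

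In the cold the order of the Slc6a8 groups was the reverse. FF cold libraries held 7.06, 6.89, 7.69 and 5.78 FPKM, all under the fed libraries, and Slc6a8 fell by 0.69 on the log2 scale (SE 0.14, limma adjusted p = 0.000892). In FF cold plus fasting, at 8.45, 7.77 and 6.24 FPKM, it fell by 0.58 (SE 0.15, limma adjusted p = 0.00698). Thus fasting at room temperature gave the highest and cold the lowest levels of the transporter. Within the second block alone the FF differences were -0.51 in cold (1 library a group) and -0.44 in cold plus fasting (1 fed library), and their p is not used here. With library block as a term the FF differences were -0.69 (limma adjusted p = 0.00108) and -0.53 (limma adjusted p = 0.0787). BKO cold libraries held 6.26, 7.03, 7.32 and 5.34 FPKM, a fall of 0.47 (SE 0.14, limma adjusted p = 0.0208) that was lost without BKO cold replicate 4 (adjusted p = 0.0745), BKO fed replicate 2 (0.155) or BKO fed replicate 3 (0.0559), when only the 2 groups were fitted (0.0803), and without the muscle-rich libraries (-0.32, adjusted p = 0.231). BKO cold plus fasting, at 6.74, 7.95 and 6.27 FPKM, did not pass (-0.37, limma adjusted p = 0.077), but did with array weights (-0.34, adjusted p = 0.0348) and without BKO fed replicate 1 (-0.51, adjusted p = 0.0288). Ordered by mean, the 2 fasted groups came first (36.3 FF, 30.5 BKO FPKM), then the 2 fed groups (11.6 FF, 9.43 BKO), then the 4 groups in the cold (6.49 to 7.48). The fasted groups overlapped with each other but with no other group, and each later group overlapped with the next.

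Ckb (ENSMUSG00000001270.8, chr12:111669361-111672338, minus strand) was on average the most abundant member and rose under all 3 challenges. Fed FF mice had 10.1, 10.3 and 13.2 FPKM. Fasted FF mice had 26.3, 50.5 and 56.3 FPKM, cold FF mice 50.9, 48.8, 37.8 and 32.5 FPKM, and FF mice in cold plus fasting 62.3, 44.1 and 38.7 FPKM. Each challenged library was at least at 26.3 FPKM, above all 3 fed ones, while the challenged groups overlapped with each other. The log2 differences from fed were 1.83 on fasting (SE 0.23, limma adjusted p = 2.59e-06), 1.82 in cold (SE 0.22, limma adjusted p = 3.41e-06) and 2.00 in cold plus fasting (SE 0.23, limma adjusted p = 3.36e-06). In the first block alone, fasting gave 1.95 and cold 1.84. In the second block, which holds 1 FF fed and 1 FF cold library, the differences were 1.87 in cold and 1.77 in cold plus fasting. Their p rests on the spread of the other groups and is not used here.

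Ckb rose in BKO mice under the same 3 challenges. Fed BKO libraries held 8.96, 14.2 and 14.1 FPKM and fasted ones 33.7, 26.9 and 29.5 FPKM. Cold BKO libraries held 29.5, 33.7, 29.3 and 34.7 FPKM, and those in cold plus fasting 30.1, 41.3 and 37.7 FPKM. No challenged BKO library was as low as a fed one. The log2 differences were 1.23 (limma adjusted p = 0.000374), 1.31 (limma adjusted p = 0.000216) and 1.49 (limma adjusted p = 0.000135), with SE of 0.23, 0.22 and 0.23. All 6 Ckb responses passed without any single library and under all alternatives that gave a value, with the FF fits to CB15 to CB32 alone set aside.

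The mitochondrial kinases were at or near 0. Ckmt1 (ENSMUSG00000000308.14, chr2:121357714-121363737, plus strand), the ubiquitous mitochondrial form, was listed at 0 in 7 of 13 FF and 9 of 13 BKO libraries and never exceeded 0.0758 FPKM. It overlaps Strc on the other strand. Ckmt2 (ENSMUSG00000021622.3, chr13:91853387-91876885, minus strand), the form of striated muscle, ranged from 0 to 1.61 FPKM, with a median of 0.296 FPKM in each genotype. It entered the test only because 3 BKO libraries reached 1 FPKM, and it spans an antisense RNA; the strand setting of the library kit is not given in the sources used here. Ckmt2 passed the test in no comparison.

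Ckmt2 moved with skeletal muscle RNA, which dissected BAT can carry from adjacent muscle. Ckm, the cytosolic muscle creatine kinase and a marker of skeletal muscle, ranged from 0 to 19.2 FPKM. In the 4 libraries with Ckm under 1 FPKM, Ckmt2 was between 0 and 0.0255 FPKM. In the 17 libraries with Ckm from 1.05 to 9.25 FPKM, Ckmt2 was between 0.0274 and 0.816 FPKM. In the 5 libraries with Ckm above 10 FPKM (FF cold replicate 2, BKO cold replicate 1, BKO cold plus fasting replicate 3, BKO fed replicate 2 and BKO fasted replicate 1), Ckmt2 was between 0.843 and 1.61 FPKM. Across all 26 libraries the correlation of log2(FPKM + 1) between the 2 genes was 0.896, a description over libraries that share groups. The 3 genes nearest to Ckmt2 in pattern were Apobec2 (r = 0.955), the Z-disc gene Myot (0.943) and Eef1a2 (0.923), all expressed in muscle. The part of adjacent muscle in the Ckmt2 values was not tested. Summed skeletal muscle markers ranged from 17.3 to 229.9 FPKM and the range of each challenged group overlapped that of the fed group in both genotypes. Without the 5 libraries richest in Ckm, 32 of 37 calls over the members and all comparisons remained, among them all 6 calls of Ckb and all 4 of Alpl against fed mice.

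**Figure D2:**
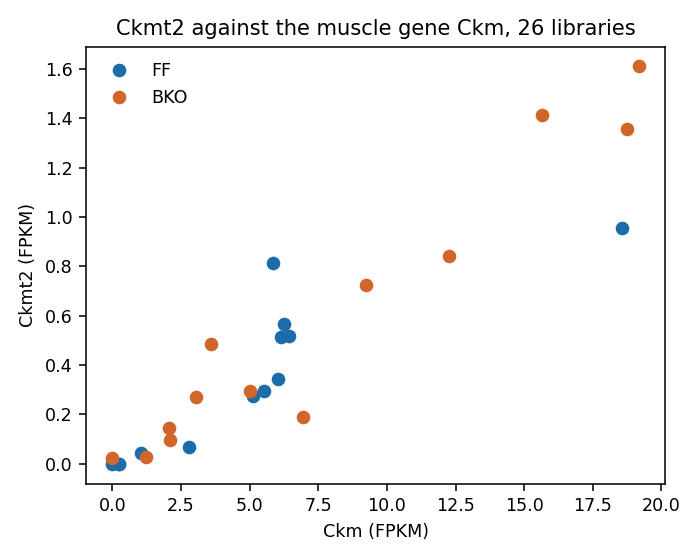
FPKM of Ckmt2 (vertical axis) against FPKM of the muscle gene Ckm (horizontal axis), 1 point per library, blue for FF and orange for BKO. The 5 libraries with Ckm above 10 FPKM have Ckmt2 of at least 0.843 FPKM, and the 4 with Ckm under 1 FPKM have at most 0.0255 FPKM.

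Alpl (ENSMUSG00000028766.10, chr4:137741733-137796384, minus strand) rose in the cold. FF fed libraries held 6.60, 7.38 and 11.4 FPKM and cold FF libraries 26.8, 28.03, 22.8 and 23.9 FPKM. In FF cold plus fasting the values were 30.1, 29.5 and 24.3 FPKM. All 7 FF libraries from the cold were above the highest fed library, and the log2 differences were 1.51 in cold (SE 0.17, limma adjusted p = 1.52e-06) and 1.64 in cold plus fasting (SE 0.18, limma adjusted p = 1.56e-06). Within the first block the cold difference was 1.69 (adjusted p = 0.00157), and between the 1 cold and the 1 fed FF library of the second it was 1.17. BKO mice went from 12.8, 9.08 and 7.31 FPKM fed to 23.7, 22.6, 23.4 and 25.6 FPKM in cold and to 23.1, 26.2 and 21.9 FPKM in cold plus fasting. The BKO groups in the cold did not overlap with the fed group, and the log2 differences were 1.24 in cold (SE 0.17, limma adjusted p = 2.68e-05) and 1.23 in cold plus fasting (SE 0.18, limma adjusted p = 6.89e-05).

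Fasting at room temperature gave no call for Alpl. FF fasted libraries held 7.86, 13.2 and 11.3 FPKM and BKO fasted libraries 7.29, 7.88 and 8.73 FPKM, overlapping the fed range in each genotype. The differences were 0.32 in FF (95% interval -0.05 to 0.69, limma adjusted p = 0.162) and -0.23 in BKO (-0.60 to 0.14, limma adjusted p = 0.363). The FF value passed without FF fed replicate 3 (0.54, adjusted p = 0.0242), without FF fasted replicate 1 (0.52, adjusted p = 0.0316) and with array weights (0.50, adjusted p = 0.0181). Alpl is also expressed by endothelial cells and neutrophils. Summed endothelial markers were 178 to 199 FPKM in fed FF and 223 to 249 FPKM in cold FF mice, and 183 to 197 FPKM against 238 to 248 FPKM in BKO mice. Of the 5 endothelial markers, 3 rose in cold in FF and 2 in BKO mice, beside 13.3% and 9.72% of all tested genes. In cold plus fasting 2 and 1 did, beside 11.6% and 10%. Their sums there were 202 to 233 FPKM in FF and 178 to 229 FPKM in BKO mice. All 3 erythroid markers rose in both groups kept in the cold in each genotype, from summed levels of 94.8 to 148 FPKM in fed to 267 to 475 FPKM in cold FF mice and from 135 to 375 FPKM in fed to 339 to 563 FPKM in cold BKO mice, and the BKO calls of Alas2 were lost in 8 of 16 alternatives or left-out libraries in cold and 8 of 15 in cold plus fasting. Summed neutrophil markers ranged from 0.608 to 11.9 FPKM over the 26 libraries, with the highest in the fed BKO group, and 0 of the 2 tested passed against fed mice. The highest level in any library was 5.11 FPKM for S100a8, 6.80 for S100a9, 0.474 for Ly6g, 0.058 for Camp and 0.0377 for Ngp. The part of these cells in the Alpl values was not tested.

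**Figure D3:**
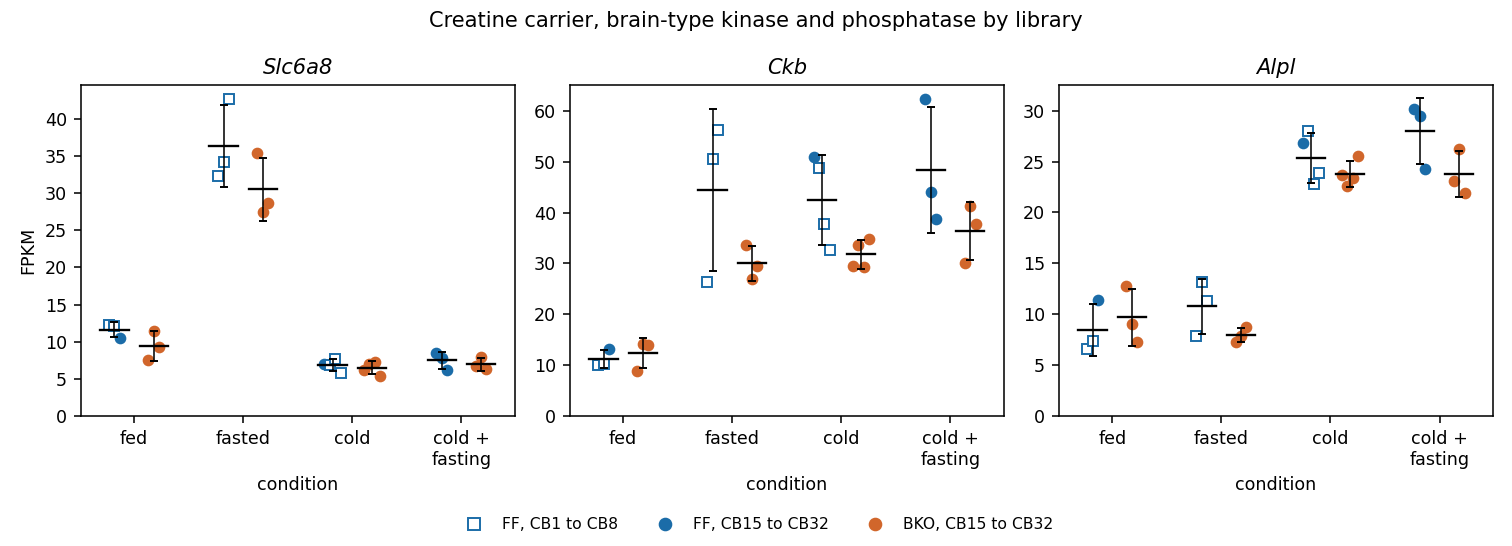
FPKM of Slc6a8, Ckb and Alpl in each of 26 libraries by condition (horizontal axis), with squares for FF libraries CB1 to CB8 and circles for CB15 to CB32, blue for FF and orange for BKO. Bars are group means and whiskers SD. Slc6a8 is highest in the fasted groups (36.3 and 30.5 FPKM on average), Ckb is lowest in the fed groups (11.2 and 12.4 FPKM), and Alpl is high in the 4 groups kept in the cold (23.8 to 27.98 FPKM).

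Fasting and cold were also compared directly. Cold plus fasting against fasting alone gave a fall of Slc6a8 by 2.14 in FF (SE 0.15, limma adjusted p = 1.99e-10) and by 1.98 in BKO mice (SE 0.15, limma adjusted p = 8.62e-10), and a rise of Alpl by 1.32 (limma adjusted p = 2.82e-06) and 1.47 (limma adjusted p = 1.08e-06). Ckb did not pass, at 0.17 in FF and 0.26 in BKO mice. In FF mice Gamt rose by 0.60 (limma adjusted p = 0.0113), but not without FF fasted replicate 2 (0.41, adjusted p = 0.0905). In all, 3 of 6 members changed in FF mice, where 52% of all tested genes did, and 2 of 6 in BKO mice, where 45.1% did. All FF fasted libraries are in the first block and all those of cold plus fasting in the second, while both BKO groups are in the second. Cold against fasting, a contrast added later, changed 3 of 6 members in FF mice (54.5% of all genes) and 2 of 6 in BKO mice (47.6%), again Slc6a8 (-2.24 and -2.07) and Alpl (1.18 and 1.47), with Gamt at 0.43 in FF mice. That Gamt call was lost without any 1 of FF cold replicates 2, 3 and 4 and FF fasted replicates 1 and 2 (adjusted p from 0.0566 to 0.301).

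Fasting in the cold gave no call for any member. Cold plus fasting against cold alone called 0 of 6 members in each genotype by limma, with 0 at an unadjusted p under 0.05 as well. It called 0% of all tested genes in FF mice (377 of 12702 at an unadjusted p under 0.05) and 0.00787% in BKO mice (1109 of 12703 at an unadjusted p under 0.05). The differences were small for Slc6a8 (0.11 in FF, 95% interval -0.17 to 0.39, and 0.10 in BKO, -0.19 to 0.38) and for Ckb (0.18 in FF, -0.27 to 0.63, and 0.18 in BKO, -0.27 to 0.63). The fasting step in the cold was therefore set against that at room temperature in contrasts added after the planned results had been seen. In FF mice the step differed for 3 of 6 members, against 21.6% of all tested genes: Ckb at -1.66 (limma adjusted p = 0.00073), Slc6a8 at -1.45 (limma adjusted p = 2.65e-05) and Gamt at 1.35 (limma adjusted p = 0.000785). In BKO mice it differed for 2 of 6 members, against 13.1% of all genes, Slc6a8 at -1.51 (limma adjusted p = 3.13e-05) and Ckb at -1.05 (limma adjusted p = 0.0312). The BKO call of Ckb was lost without any 1 of 5 libraries (BKO fed, fasted and cold plus fasting replicates 1 and BKO cold replicates 2 and 4, adjusted p from 0.0523 to 0.102), and without the muscle-rich libraries (-1.14, adjusted p = 0.118). Whether mice in the cold challenge had food is not given in the labels, so the step compares groups by their names.

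**Figure D4:**
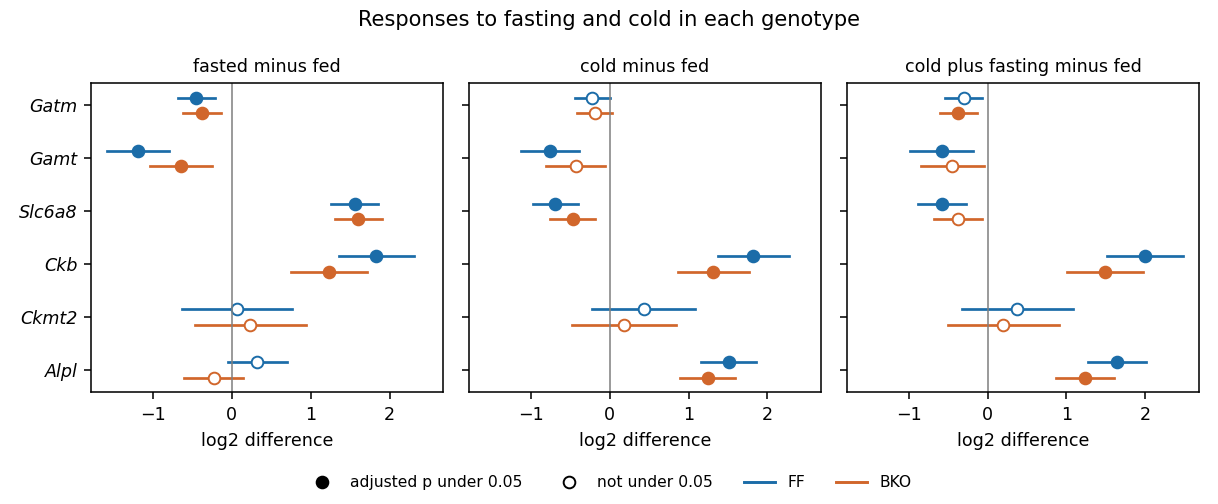
Log2 differences from fed mice (horizontal axis) for the 6 tested genes in fasting, cold, and cold plus fasting, blue for FF and orange for BKO, with 95% intervals. Filled points passed an adjusted p of 0.05. Slc6a8 lies to the right of 0 in fasting (1.56 and 1.60) and to the left in cold (-0.69 and -0.47), Ckb lies to the right in every panel, and Alpl does so in both panels with cold.

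The deletion of Klf15 gave no call for any member. BKO against FF called 0 of 6 by limma in fed mice (0.22% of all tested genes), fasted mice (8.68%), cold (0.401%), cold plus fasting (0.236%) and the average of the 4 conditions (2.97%). At an unadjusted p under 0.05 there were 2 in fasted mice, Ckb and Alpl, and 2 in the average, Ckb and Slc6a8, and 0 elsewhere, beside 2969 of 12704 genes in fasted mice and 2403 of 12702 in the average. The Ckb difference was 0.12 in fed mice (95% interval -0.36 to 0.60), -0.48 in fasted mice (-0.96 to -0.004), -0.39 in cold (-0.80 to 0.03) and -0.39 in cold plus fasting (-0.86 to 0.09). Each interval reached or nearly reached 0, and the lower bounds in challenged mice lay between -0.96 and -0.80. The average for Ckb was -0.28 (-0.52 to -0.05, limma adjusted p = 0.168). FF fasted replicate 1, at 26.3 FPKM, lay under the 50.5 and 56.3 FPKM of the other two, and without it Ckb passed in fasted mice (-0.81, adjusted p = 0.0208) and in the average (-0.37, adjusted p = 0.0358). With library block as a term, estimated from the FF fed and FF cold libraries, the fasted difference was -0.84 (adjusted p = 0.234). Within the second block Ckb differed by -0.11 in fed mice and -0.67 in cold, with 1 FF library in each, so the p of these differences is not used.

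The other members passed in no condition either. Slc6a8 differed by -0.29 in fed mice (-0.59 to 0.01), -0.24 in fasted mice (-0.55 to 0.06), -0.07 in cold (-0.33 to 0.19) and -0.08 in cold plus fasting (-0.39 to 0.22). Alpl differed by 0.18, -0.37, -0.09 and -0.22 in the same order, and its interval reached lowest in fasted mice (-0.74 to -0.002). Gamt differed by -0.26, 0.28, 0.06 and -0.12, and Gatm by 0.03, 0.10, 0.06 and -0.04. The smallest limma adjusted p among the conditions for these 4 genes was 0.212, for Alpl in fasted mice. The difference between the genotypes in the response itself was called for 0 of 6 members by limma in fasting (0.716% of all genes), cold (0.00787%) and cold plus fasting (0.00787%), with 1 at an unadjusted p under 0.05, Alpl on fasting at -0.55 (-1.08 to -0.03), beside 1521 of 12704 genes. For Ckb the BKO response was lower by 0.60 on fasting (-1.28 to 0.07), 0.51 in cold (-1.14 to 0.12) and 0.51 in cold plus fasting (-1.19 to 0.17). A p that misses the threshold does not show that the genotypes respond alike.

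**Figure D5:**
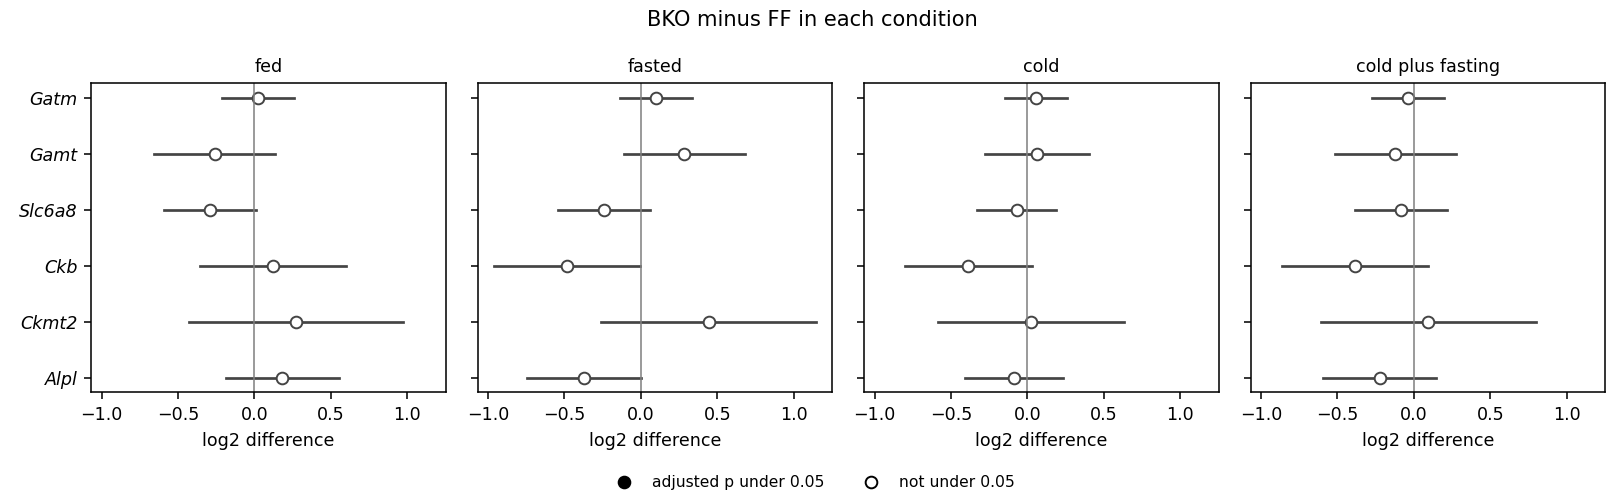
Log2 difference of BKO minus FF (horizontal axis) for the 6 tested genes in each of 4 conditions, with 95% intervals. Open points did not pass an adjusted p of 0.05, and all are open. Ckb lies at 0.12 in fed mice and at -0.48, -0.39 and -0.39 in the other panels.

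Genes that make, use or carry the substrates of creatine synthesis were counted beside Gatm and Gamt, which fell on fasting. The list mixes genes of supply and of use, so its counts do not measure supply. Of 12 genes for arginine, glycine and methyl donor supply, 8 were tested, and on fasting 5 rose and 1 fell in each genotype, with a median difference of 0.77 in FF and 0.47 in BKO mice. Of all tested genes 18.1% rose and 19.4% fell in FF mice, and 12.9% and 14.6% in BKO mice. Asl, which releases arginine from argininosuccinate, rose by 2.95 in FF and 2.31 in BKO mice. Ahcy, which removes the S-adenosylhomocysteine that methylation by Gamt leaves, rose by 1.63 and 1.14. Gnmt, which consumes S-adenosylmethionine by methylating glycine, rose by 1.51 and 1.76. Of all tested genes 13.3% rose and 10.3% fell in the cold in FF mice, and 9.72% and 6.51% in BKO mice. In the cold 1 of the 8 rose and 2 fell in each genotype, and these counts did not hold: the 3 calls became 0 to 5 over the alternatives in FF mice and 1 to 3 in BKO mice, where the 1 that rose, Gnmt (0.49), was lost in 12 of 16 alternatives or left-out libraries, and 1 call was left without BKO fed replicate 3.

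Adenylate kinases, which like creatine kinases move phosphate between nucleotides and their partners, were lower on fasting. Of 9 adenylate kinases and ATP/ADP carriers, 3 fell on fasting in FF mice and 4 in BKO mice, and 0 rose, where 19.4% and 14.6% of all tested genes fell. Ak1, the cytosolic adenylate kinase, fell by 2.04 and 1.70. In the cold 2 rose and 0 fell in each genotype (1 to 4 calls over the alternatives in FF and 1 to 3 in BKO mice), led by the mitochondrial Ak4 at 1.96 in FF and 1.73 in BKO mice. Of all tested genes 13.3% rose in the cold in FF and 9.72% in BKO mice. The list medians stayed between -0.22 and 0.11. Of 5 genes of mineral handling related to Alpl, 4 were tested. On fasting 3 rose and 1 fell in FF mice, beside 18.1% and 19.4% of all tested genes. In BKO mice 2 rose and 1 fell, beside 12.9% and 14.6%. Ank, a transporter linked to pyrophosphate export, fell by 1.27 and 1.42 on fasting, and the phosphate transporter gene Slc20a2 rose by 0.94 and 1.18. Phospho1, a phosphatase of phosphocholine and phosphoethanolamine, rose by 1.26 in cold in FF mice (limma adjusted p = 2.9e-05), while its BKO value of 0.52 did not pass (limma adjusted p = 0.0506, and under 0.05 in 5 of 17 alternatives). The difference of the 2 Phospho1 cold responses was -0.74 (limma adjusted p = 1).

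Of 4 creatine neighbours (carriers and the muscle kinase Ckm) 3 were tested. Slc6a6, the taurine transporter from the same family as Slc6a8, rose by 0.70 and 0.63 on fasting and by 0.84 and 0.67 in cold in FF and BKO mice, whereas Slc6a8 fell in cold. Slc22a5, a carnitine transporter, rose by 0.53 on fasting in FF mice, and its BKO value of 0.41 did not pass (limma adjusted p = 0.0513, and under 0.05 in 6 of 16 alternatives). The calls of both carriers ended under some of the alternatives or left-out libraries (for Slc6a6 on fasting 3 of 16 in FF and 5 of 16 in BKO mice, in cold 1 of 18 and 4 of 17, and for Slc22a5 5 of 16).

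The genes whose levels ran closest to each member over the 26 libraries were taken by Pearson correlation of log2(FPKM + 1), as a description of libraries that share groups. Slc6a8 was followed by Fbxo21 (r = 0.976), Pnpla7 (0.973) and Wnt11 (0.971). Alpl was followed by Bsg (0.958), a chaperone of lactate transporters, by Got1 (0.954), the cytosolic aspartate aminotransferase, and by Sult5a1 (0.952). Ckb was followed by Tmem82 (0.915) and Acot1 (0.885), Gatm by Gfra2 (0.844), Igtp (0.842) and Hvcn1 (0.835), and Gamt by the collagen genes Col5a2 (0.826) and Col3a1 (0.824) and by Aldh7a1 (0.819). Among the members themselves, Ckb ran with Alpl at 0.64 and against Gamt at -0.73, and Slc6a8 ran against Alpl at -0.71 and was unrelated to Ckb at 0.04. Ckb and Phospho1 stood at 0.86.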

How the data were processed

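RNA of BAT from 26 mice in 8 groups was analysed. Per the submitters' processing notes the authors used STAR, Cufflinks and Cuffdiff with mm10, with no versions given, and deposited 1 table of FPKM per gene and library; counts were not used here. Exact zeros in 33 genes whose other values were at least 100 FPKM were treated as failed estimates. Of these genes, 31 kept too few values and were left out whole. In the others only the zeros were removed, so Ucp1 has no value in the cold challenge libraries. The 12704 genes that reached 1 FPKM in 3 or more libraries were fitted as log2(FPKM + 1) with 8 group means over all 26 libraries (limma 3.58.1, R 4.3.3, empirical Bayes with intensity trend, two-sided), with a Benjamini-Hochberg threshold of 0.05 per contrast, and the procedure was tested on simulated data. The highest correlation between 2 libraries was 0.989, so none was counted as a duplicate. Alternatives covered the pseudocount, low-value filters, scaling, library block, array weights, the compared groups alone and each library left out; leaving out muscle-rich libraries and using only CB1 to CB8 were added after seeing the data, as were the contrasts of fasting steps and of cold with fasting. The 7 genes and all lists were chosen with earlier results of these data known. Named genes were the members, Klf15, up to 3 genes per list with the smallest adjusted p, and the 3 genes most correlated with each tested member, of which 1 is not reported here; Ckm with its limits of 1 and 10 FPKM and the neutrophil markers were named after their values were seen. Coordinates are from GENCODE M21 (GRCm38) and promoters from RefSeq, with no entry matched for Slc6a8.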

Additional observations from a re-analysis of the deposited data

Results flagged for a closer look

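The responses to fasting differed between the cold and room temperature for 3 genes in FF mice and for 2 of them in BKO mice. In FF mice the fasting step of Ckb was lower in the cold by 1.66 on the log2 scale (a difference of -1.66) and that of Slc6a8 was lower as well (-1.45), while that of Gamt was higher (1.35). In BKO mice the step was lower in the cold for Slc6a8 (-1.51) and for Ckb (-1.05). The BKO call of Ckb was lost in 5 of 13 fits that left out 1 library, and Gamt did not pass in BKO mice (0.63, limma adjusted p = 0.117). Whether mice in the cold challenge had food is not given in the labels. These contrasts were added after the planned results had been seen, and each rests on 4 groups of 3 or 4 libraries.

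Within the 4 BKO cold libraries, 1 stood apart for Ckmt1, at 0.0254 FPKM with the other 3 at 0. A lone library above 0 also occurred in FF fed (0.0222 FPKM), FF fasted (0.0432 FPKM) and BKO fasted mice (0.0209 FPKM). The level is near the lowest the table resolves.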

How the results depend on the processing

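Of 37 calls of single genes over all comparisons (those added later included), 36 were kept with a pseudocount of 0.1, 34 with no filter, 35 with quantile normalization, 37 with median-of-ratios scaling, 35 with library block as a term, 36 with array weights, 34 when only the compared groups were fitted and 32 without the muscle-rich libraries. CB15 to CB32 alone gave 24 of them, 20 kept, and CB1 to CB8 alone gave 11, all kept. The FF comparisons with fed mice in CB15 to CB32 alone rest on 1 fed library, so their p draws on the spread of the other groups. Leaving out 1 library at a time gave 269 values, of which 242 were kept, and 0 called values reversed under any of these settings. The number of members called moved by more than 1.5 times in the following cases, and by 1 at most in all others. With a mean of at least 5 FPKM required, which leaves out Gatm and Gamt, it was 2 rather than 4 on fasting in FF and in BKO mice. In FF mice it was 2 rather than 4 with only CB15 to CB32 in cold and in cold plus fasting, and 2 in cold plus fasting with library block as a term. For the BKO fasting step it was 1 rather than 2 with no filter and without the muscle-rich libraries, and 1 to 2 over left-out libraries. Over left-out libraries it was 0 to 1 for BKO against FF in fasted mice and in the average, and 2 to 4 on fasting in BKO mice, where BKO fasted replicate 1 decided it. No paired analysis was possible because the labels carry no replicate number shared between groups. Groups of 3 or 4 mice and an unknown depth limit what small differences or the levels of Ckmt1 and Ckmt2 can show.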

Other observations

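Genes of other heat-producing pathways were read in the same fit. Of 10 thermogenic brown fat genes, 2 rose and 3 fell on fasting in FF mice, where 18.1% of all tested genes rose and 19.4% fell. In BKO mice 0 rose and 1 fell (12.9% and 14.6% of all genes), and that count of 1 lay between 0 and 2 over the alternatives and was 0 without BKO fed replicate 1 or 2 or BKO fasted replicate 1 or 3. In cold plus fasting 3 rose in each genotype and 1 fell in FF mice, among them Ucp1, the uncoupling protein, at 1.28 in FF and 0.86 in BKO mice; these calls of Ucp1 were lost under 3 of 16 and 1 of 16 alternatives or left-out libraries. Of all tested genes 11.6% rose and 8.93% fell in cold plus fasting in FF mice, and 10% and 8.93% in BKO mice. The FF count of called thermogenic genes changed by more than 1.5 times under 2 of 10 alternatives and without 2 of 6 libraries. The BKO count did so under 2 of 10 and without 0 of 6. In the cold 2 of these genes were called in FF mice (1 to 3 over left-out libraries), where 13.3% of all tested genes rose and 10.3% fell. In BKO mice 1 was called, Elovl3, where 9.72% rose and 6.51% fell. Elovl3, a fatty acid elongase that marks active brown fat, rose by 2.67 in cold in FF and by 2.56 in BKO mice. Its FF call was lost in 1 of 18 alternatives or left-out libraries. Adrb3, the beta3 adrenergic receptor, fell by 1.84 on fasting in FF mice, while its BKO value of -0.33 did not pass (limma adjusted p = 0.442). The difference of these Adrb3 responses was 1.51 (limma adjusted p = 0.108).

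Of 5 calcium cycling genes 2 were tested, and Atp2a2, the SERCA2 calcium pump, rose in FF mice by 0.50 in cold and 0.61 in cold plus fasting, calls lost under 5 of 18 and 3 of 16 alternatives or left-out libraries, where 13.3% and 11.6% of all genes rose. Its BKO values of 0.30 and 0.24 did not pass. Of 5 genes for fatty acid and glycerol cycling, 1 fell in cold in each genotype, Dgat2, which makes triglyceride, by 0.65 in FF and 0.90 in BKO mice, where 10.3% and 6.51% of all genes fell. Among other cell markers, Cfd of adipocytes fell by 2.07 in cold in FF and by 2.26 in BKO mice. Adipoq fell by 0.32 and 0.45, and its FF call was lost in 9 of 18 alternatives or left-out libraries. Plin1, also of adipocytes, stood at 0.125 and 0.008 in cold and passed in neither genotype. Summed adipocyte markers overlapped, at 9974 to 12277 FPKM in fed and 8767 to 11516 FPKM in cold FF mice. In BKO mice the sums were 10613 to 12470 FPKM fed and 8355 to 11415 FPKM in cold. Myl1, 1 of 10 tested skeletal muscle markers, fell on fasting by 1.18 in FF and by 0.61 in BKO mice, and its BKO call was lost in 3 of 16.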
